A study of Mus musculus with 24 samples.

Results

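The 7 genes described here belong to the extracellular nucleotide and adenosine axis of T cells: Nt5e, Entpd1, Adora2a, P2rx7, P2rx4, Ada and Dpp4. They were chosen by gene symbol and found in the deposited count table through their Ensembl identifiers, as 7 of 54446 genes, and all 7 were among the 15325 genes with enough counts to be tested. Cells release ATP when they are activated, stressed or damaged, and the P2X channels open when they bind it. The ectoenzyme CD39 (Entpd1) strips ATP and ADP to AMP, CD73 (Nt5e) turns AMP into adenosine, and adenosine acting on its receptor Adora2a raises cyclic AMP and restrains T cell activation. Adenosine deaminase (Ada) ends the signal by converting adenosine to inosine. On human T cells CD26 (Dpp4), a dipeptidyl peptidase, anchors this enzyme at the cell surface.

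Messenger RNA was sequenced from splenic CD4+ T cells of 3 wild type (WT) mice, numbered 1, 3 and 4, and 3 Aim2-deficient (Aim2-/-) mice, numbered 1, 2 and 4, all of C57BL6 background. Aim2 encodes a sensor of cytosolic DNA. How the Aim2-/- allele was made, and in which cells it acts, is not given in the sources used here. Cells of each mouse were sampled unstimulated (0 h) and after 3, 6 and 24 h with anti-CD3/CD28 antibodies, giving 8 groups of 3 libraries. These antibodies engage the T cell receptor (TCR) complex and the costimulatory receptor CD28. The ages of the mice are not given in the sources used here, and every mouse, WT or Aim2-/-, received the same stimulation.

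The 24 libraries held 19715161 to 21627018 counts each. Levels are given as CPM, each count relative to the total of its library after scaling by TMM factors, and 3 counts, taken as the floor of detection, amount to 0.129 to 0.155 CPM. In the library labelled WT 1 the targeted gene went against its label: Aim2 stood at 21.5 CPM at 0 h, beside 67.5 to 75.0 CPM in the other WT mice and 15.7 to 20.1 CPM in the Aim2-/- mice, and the same held at 3, 6 and 24 h. Genotype results of the members are therefore given with and without that mouse. CD4+ T cell markers summed to 3670 to 5950 CPM in every library, and the sums were lower at 24 h than at 0 h. In WT libraries they were 5790 to 5950 CPM at 0 h and 3670 to 3930 CPM at 24 h. In Aim2-/- libraries they were 5430 to 5890 and 3850 to 3990 CPM. Of 9 lists of markers of other cells, 7 had a higher sum in every Aim2-/- than in every WT library at 0 h, and those of erythroid and CD8 T cells overlapped. Their values stand beside the genotype results. In RNA from a mixture of cells, fewer cells of a type and less RNA per cell cannot be told apart, and this holds for every change reported here.

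The genes lie on 5 chromosomes of GRCm38. Nt5e (ENSMUSG00000032420) spans chromosome 9 from 88327197 to 88372092 and Entpd1 (ENSMUSG00000048120) chromosome 19 from 40612366 to 40741602. Adora2a (ENSMUSG00000020178) lies on chromosome 10 from 75316877 to 75334784. P2rx7 (ENSMUSG00000029468, 122643911 to 122691432) and P2rx4 (ENSMUSG00000029470, 122707544 to 122729738) are neighbours on the plus strand of chromosome 5. Ada (ENSMUSG00000017697, 163726584 to 163750239) and Dpp4 (ENSMUSG00000035000, 62330073 to 62412231) are both on the minus strand of chromosome 2. Dpp4 shares 232 exonic bases with the antisense gene Gm13561 and P2rx7 shares 119 with the microRNA gene Mir8115. Whether reads were assigned by strand is not stated, so a part of the Dpp4 count could come from the antisense gene.

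RefSeq start sites of GRCm38.p6 were matched for 6 of the 7 genes, in 8 windows of 250 bases before a start. The windows of Ada and Dpp4 are printed because these 2 genes, on the same strand of the same chromosome, moved in opposite directions after stimulation, and because neither window overlaps an annotated exon. They run 5′ to 3′ on the minus strand, at chr2:163750240-163750489 for Ada and chr2:62412232-62412481 for Dpp4. Capitals mark matches, on either strand, to motifs that were searched.
Ada: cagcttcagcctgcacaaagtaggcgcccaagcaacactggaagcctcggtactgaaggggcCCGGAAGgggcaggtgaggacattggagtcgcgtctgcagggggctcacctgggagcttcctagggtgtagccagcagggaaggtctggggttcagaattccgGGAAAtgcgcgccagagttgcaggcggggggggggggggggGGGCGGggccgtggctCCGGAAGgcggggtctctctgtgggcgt
Dpp4: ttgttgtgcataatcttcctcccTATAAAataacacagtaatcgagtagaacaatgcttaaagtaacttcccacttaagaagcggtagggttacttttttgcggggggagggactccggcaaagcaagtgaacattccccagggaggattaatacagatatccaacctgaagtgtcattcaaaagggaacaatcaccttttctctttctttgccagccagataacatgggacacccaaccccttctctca

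The Ada window is 67.2% G and C and holds 2 copies of the ETS motif CCGGAAG, found in 6.91% of 32851 windows of this length, 1 GC box (GGGCGG, 32.7% of windows) and 1 NFAT core (GGAAA, 55.6%). The Dpp4 window is 43.6% G and C, below the median of 52.4% over all windows, and holds 1 TATA box (TATAAA, 12.4%), placed 227 to 222 bases before the start. Among the other members, the first P2rx7 window has an AP-1 motif (TGANTCA, 6.75% of windows) 249 to 243 bases before its start, and the second Entpd1 window has 2 NFAT cores. The Nt5e window, at 72.0% G and C, has 4 GC boxes, in 2 pairs that overlap. All 250 bases of that window lie in annotated exon of Nt5e itself, downstream of the annotated start of the gene. No member window holds TGACGTCA, the cyclic AMP response element found in 1.55% of windows, CACGTG (E-box, 6.02%), TTTNGCGC (E2F, 1.13%) or TGTGGT (RUNX, 14%). These are matches of letters in a short window and were not measured as binding.

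Resting CD4+ T cells carried far more transcript for CD73, which makes adenosine, and for the receptor Adora2a than for the deaminase Ada. Divided by the length of the longest transcript, the mean level at 0 h in WT cells was 86.7 CPM per kb for Nt5e and 64.7 CPM per kb for Adora2a, whose ranges over mice overlapped. Dpp4 followed at 12.1, P2rx4 at 8.24, P2rx7 at 6.49, Ada at 4.32 and Entpd1 at 2.80 CPM per kb, and from Adora2a downward no range overlapped the next. The kinase Adk, not a member, also removes adenosine, and in WT cells it had 15.8 CPM per kb at 0 h and 61.2 CPM per kb at 3 h. In Aim2-/- cells Adora2a (105 CPM per kb) and Nt5e (104 CPM per kb) were level. At 24 h Ada led in both genotypes, at 22.8 CPM per kb in WT and 20.2 CPM per kb in Aim2-/- cells, with no overlap with Adora2a, at 10.8 and 13.9 CPM per kb. Entpd1 was the lowest of the 7 at 3, 6 and 24 h in both genotypes.

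The change of order shows within single mice. Per kb, WT mice held 14.7 to 15.2 times as much Adora2a as Ada transcript at 0 h, 4.76 to 6.54 times as much at 6 h, and 0.394 to 0.538 times as much at 24 h. The Aim2-/- mice ran from 16.4 to 24.6 times at 0 h down to 0.536 to 0.930 times at 24 h. The ratio of Nt5e to Ada fell likewise, from 15.7 to 26.8 at 0 h to 0.170 to 0.430 at 24 h in WT mice. Nt5e exceeded Entpd1 by 26.8 to 34.6 times per kb at 0 h and by 6.89 to 13.7 times at 24 h in WT mice.

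**Figure D1:**
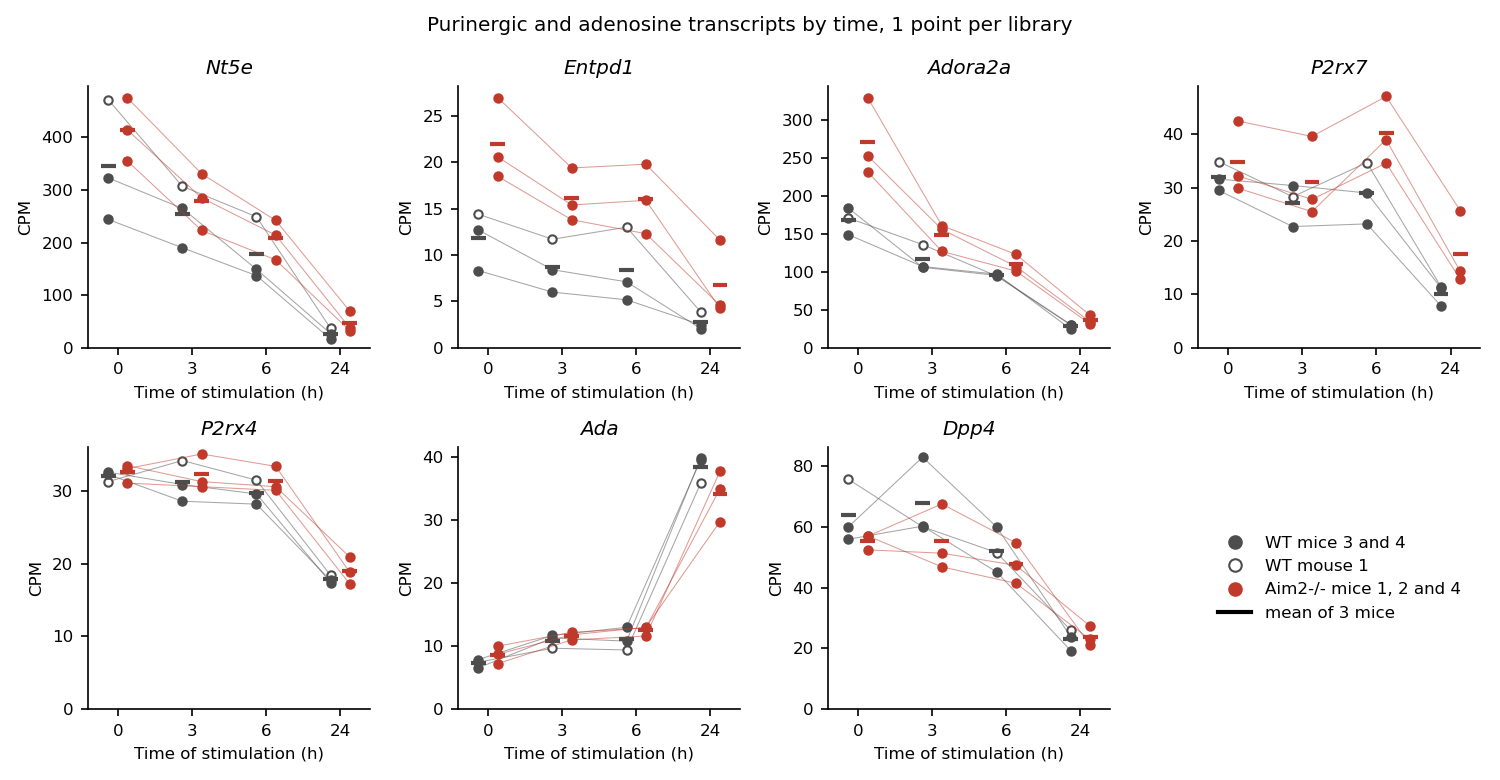
Level of each gene in CPM (linear axes from 0) at 0, 3, 6 and 24 h of stimulation, times spaced evenly and not to scale. Each point is 1 library, thin lines join the libraries of a mouse, thick bars are means of 3 mice, and open points are the mouse labelled WT 1. Ada ends above its start in all 6 mice and the other 6 genes end below.

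By 24 h every one of the 7 transcripts had changed in both genotypes: Ada rose and the other 6 fell. Of all tested genes, 71.4% were called in WT and 70.3% in Aim2-/- cells at this time, 34.8% and 33.5% as lower and 36.6% and 36.8% as higher, so 7 calls of 7 lie above a background that is itself high. A call is an adjusted p under 0.05 in edgeR's quasi-likelihood test over all 15325 genes. The median log2 fold change of the 7 was -1.66 in WT and -1.22 in Aim2-/- cells, against -0.01 and 0.03 over all tested genes. Without the mouse labelled WT 1 all 7 stayed called in WT cells, from -3.73 (Nt5e) to 2.46 (Ada). All 7 were also called between 6 and 24 h, where 57.6% of tested genes in WT and 54.3% in Aim2-/- cells passed.

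The early response was narrower. At 3 h only Adora2a and Ada were called in each genotype, 2 of 7 against 32.6% of tested genes in WT and 30.7% in Aim2-/- cells. At 6 h Nt5e joined them, 3 of 7 against 51.1% and 51.2%, a share below the background. Without the mouse labelled WT 1 these calls held in WT cells. With mouse as a block, which compares the time points within each animal, Nt5e and Entpd1 were called as well at 3 h, giving 4 of 7 in each genotype against 42.7% and 41.2% of tested genes. At 6 h the block added Entpd1, again 4 of 7 against 59.2% and 59.9%. Between 3 and 6 h, edgeR called 0 members in WT cells (25.7% of tested genes; 1 member at an unadjusted p under 0.05; 0 by DESeq2 and by limma-voom) and 1, Adora2a, in Aim2-/- cells (23.3%). With the block this step had 3 calls in each genotype, Nt5e, Adora2a and Dpp4 in WT and Nt5e, Adora2a and P2rx7 in Aim2-/- cells, against 36.1% and 35.5%.

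**Figure D2:**
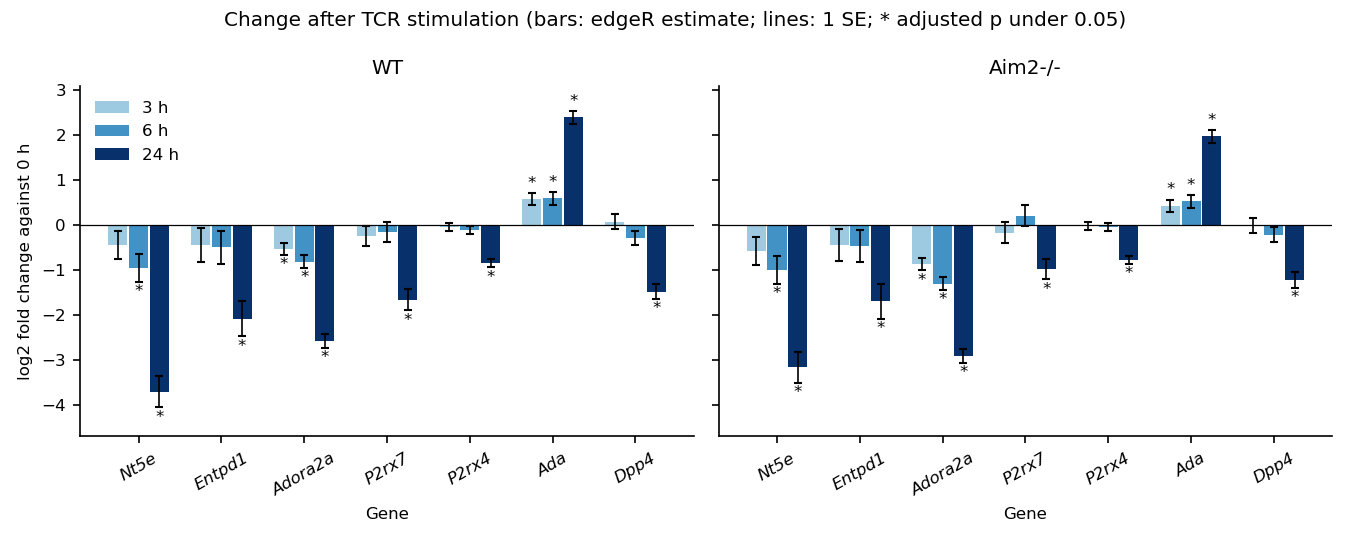
Log2 fold change of each gene at 3, 6 and 24 h against 0 h in WT (left) and Aim2-/- cells (right), with 1 SE of the edgeR fit, 3 mice per group. Asterisks mark an adjusted p under 0.05; at 24 h the bars run from -3.71 (Nt5e) to 2.40 (Ada) in WT cells.

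Nt5e, which encodes the AMP-hydrolysing ectoenzyme CD73, showed the deepest fall. WT mice 1, 3 and 4 had 472, 244 and 323 CPM at 0 h and 307, 190 and 265 CPM at 3 h. They had 249, 137 and 149 CPM at 6 h and 36.5, 16.1 and 26.6 CPM at 24 h. Every mouse declined at every step, and the highest value at 24 h was below the lowest at 6 h.
Nt5e in Aim2-/- mice 1, 2 and 4 went from 475, 414 and 355 CPM at 0 h over 331, 285 and 223 CPM at 3 h and 242, 214 and 167 CPM at 6 h to 69.1, 37.2 and 31.9 CPM at 24 h. The log2 fold change of Nt5e at 24 h was -3.71 ± 0.35 (SE; adjusted p = 4.6e-09) in WT and -3.17 ± 0.34 (adjusted p = 3.7e-08) in Aim2-/- cells. At 6 h it was -0.96 (adjusted p = 0.0137) and -1.0 (adjusted p = 0.0107). The 6 h call was lost without WT mouse 4 (-0.92) and without Aim2-/- mouse 2 (-1.02) or 4 (-0.96). The 3 h values of -0.45 and -0.57 were not called (adjusted p = 0.295 and 0.182), and with mouse as a block they were, at adjusted p = 0.00673 and 4.7e-04. Within a group the WT mice differed by nearly as much as the early change, with mouse 1 highest at all 4 times.

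Entpd1 encodes CD39, the ectoenzyme upstream of CD73, known as a surface marker of regulatory T cells and also present on B cells and myeloid cells. It was scarce: 14.4, 8.32 and 12.7 CPM in WT mice 1, 3 and 4 at 0 h, and 3.85, 2.47 and 2.05 CPM at 24 h. At 3 h these mice had 11.7, 5.99 and 8.41 CPM and at 6 h 13, 5.16 and 7.10 CPM, ranges that overlap those of 0 h.
Values in Aim2-/- mice 1, 2 and 4 were 27.0, 20.6 and 18.5 CPM at 0 h, 19.4, 15.4 and 13.8 CPM at 3 h, 19.8, 15.9 and 12.3 CPM at 6 h and 11.6, 4.23 and 4.56 CPM at 24 h. Entpd1 was thus lower at 24 h than at 6 h in all 6 mice, and the call of this step in Aim2-/- cells was lost without mouse 2 (-0.99) or 4 (-1.17). The fall at 24 h was -2.08 ± 0.40 (SE) on the log2 scale in WT (adjusted p = 8.7e-05) and -1.70 ± 0.38 in Aim2-/- cells (adjusted p = 4.4e-04). With mouse as a block the 6 h values of -0.54 and -0.47 passed (adjusted p = 0.0159 and 0.0241), which they did not without it (adjusted p = 0.289 and 0.303). Markers of myeloid cells moved in the same direction: over 24 h their sum went down from a range of 45.5 to 68.8 CPM to 13.8 to 29.0 CPM in WT libraries. In Aim2-/- libraries it went down from 131 to 399 CPM to 32.4 to 200 CPM. B cell markers, nearly all of the sum being Ighm, went in Aim2-/- libraries from 4350 to 6090 CPM at 0 h to 712 to 1600 CPM at 24 h. In WT libraries the B cell sums of the 2 times overlapped, at 349 to 747 CPM at 0 h and 328 to 436 CPM at 24 h. Taken singly, 2 of 7 B cell markers were called lower and 0 higher at 24 h in WT cells. In Aim2-/- cells 3 were called lower and 0 higher. Foxp3, the Treg transcription factor, averaged 104, 266, 233 and 49.1 CPM at 0, 3, 6 and 24 h in WT cells and 148, 304, 313 and 93.9 CPM in Aim2-/- cells. Its mean was thus lower at 24 h than at 0 h but higher at 3 and 6 h. The sum of all 5 Treg markers, Foxp3 among them, overlapped between 0 and 24 h in both genotypes. It was 1220 to 1680 and 1520 to 1620 CPM in WT libraries, and 1830 to 2290 and 1600 to 1850 CPM in Aim2-/- libraries. Taken singly, 3 of the 5 Treg markers were called lower and 1 higher at 24 h against 0 h in WT cells. In Aim2-/- cells 4 were called lower and 1 higher. Over all tested genes 34.8% and 33.5% were called lower. Aim2-/- mouse 1 had both the 11.6 CPM of Entpd1 and the 200 CPM of myeloid markers at 24 h, and the part of B, myeloid and Treg cells in the Entpd1 result was not tested.

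Adora2a encodes the main adenosine receptor of T cells. WT mice 1, 3 and 4 had 171, 149 and 184 CPM at 0 h, 136, 107 and 106 CPM at 3 h, 94.4, 96.9 and 95.2 CPM at 6 h and 29.7, 24.2 and 30.3 CPM at 24 h. The groups of the 4 time points did not overlap.
Aim2-/- mice 1, 2 and 4 started higher, at 330, 232 and 253 CPM, and had 161, 127 and 156 CPM at 3 h, 123, 101 and 107 CPM at 6 h and 42.6, 31.1 and 34.2 CPM at 24 h. Adora2a was the one receptor of the set that had fallen by 3 h, by -0.53 ± 0.14 (SE) on the log2 scale in WT (adjusted p = 0.0064) and -0.87 ± 0.14 in Aim2-/- cells (adjusted p = 8.5e-05). The WT value of 3 h did not pass once WT mouse 4 was left out (-0.42). At 6 h the log2 fold changes were -0.81 (adjusted p = 6.1e-05) and -1.30 (adjusted p = 2.5e-07), and at 24 h -2.58 ± 0.15 (adjusted p = 3.8e-12) and -2.92 ± 0.15 (adjusted p = 1.2e-12). Between 3 and 6 h the change was -0.42 in Aim2-/- cells (adjusted p = 0.0347) and -0.29 in WT cells (adjusted p = 0.155; 0.0162 with mouse as a block).

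P2rx7 encodes the P2X7 channel, which opens at high ATP and can lead to shedding of surface proteins and death of T cells. WT mice 1, 3 and 4 had 34.9, 29.5 and 31.6 CPM at 0 h, 28.3, 22.7 and 30.4 CPM at 3 h, 34.7, 23.2 and 29.0 CPM at 6 h and 11.4, 7.81 and 11.2 CPM at 24 h. The level was held until 6 h, with overlapping ranges, and then dropped in all 3 mice.
In Aim2-/- mice 1, 2 and 4 the channel stood at 42.5, 29.9 and 32.2 CPM at 0 h, 39.6, 25.5 and 27.8 CPM at 3 h, 47.1, 39.0 and 34.6 CPM at 6 h and 25.7, 14.3 and 12.8 CPM at 24 h. At 24 h P2rx7 was lower by -1.66 ± 0.24 (log2, SE) in WT (adjusted p = 3.1e-06) and by -0.98 ± 0.23 in Aim2-/- cells (adjusted p = 8.8e-04). Before that the estimates were small and of either sign, -0.24 and -0.15 in WT and -0.17 and 0.21 in Aim2-/- cells at 3 and 6 h, with adjusted p from 0.476 to 0.632. In Aim2-/- cells the step from 3 to 6 h (0.38, higher in 3 of 3 mice) was called only with mouse as a block (adjusted p = 0.00835, without it 0.26).

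P2rx4 encodes the P2X4 channel, which responds to lower ATP than P2X7 and, in many cells, resides mostly in lysosomes. It was the steadiest of the 7. WT mice 1, 3 and 4 had 31.3, 32.6 and 32.3 CPM at 0 h, 34.2, 30.9 and 28.6 CPM at 3 h, 31.5, 29.6 and 28.2 CPM at 6 h and 18.4, 17.4 and 17.7 CPM at 24 h.
For Aim2-/- mice 1, 2 and 4 the values were 33.1, 31.1 and 33.5 CPM at 0 h, 35.1, 30.6 and 31.3 CPM at 3 h, 33.4, 30.1 and 30.6 CPM at 6 h and 18.8, 17.2 and 20.9 CPM at 24 h. At 3 and 6 h the P2rx4 estimates lay between -0.11 and -0.01 on the log2 scale with an SE of 0.09. The fall at 24 h, -0.85 ± 0.09 (adjusted p = 3.6e-08) in WT and -0.78 ± 0.09 (adjusted p = 1.3e-07) in Aim2-/- cells, was the smallest of the set and among the most precise.

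Ada, whose enzyme converts adenosine to inosine, was the only member to rise. WT mice 1, 3 and 4 had 7.45, 6.56 and 7.86 CPM at 0 h, 9.67, 11.3 and 11.7 CPM at 3 h, 9.39, 10.8 and 13 CPM at 6 h and 35.9, 39.9 and 39.6 CPM at 24 h. There were 2 steps, an early one by 3 h and a larger one after 6 h.
Ada in Aim2-/- mice 1, 2 and 4 measured 8.71, 7.23 and 10 CPM at 0 h, 11.8, 11 and 12.2 CPM at 3 h, 13, 11.6 and 12.9 CPM at 6 h and 29.8, 37.8 and 35.0 CPM at 24 h. The log2 fold change of Ada was 0.58 ± 0.14 (SE; adjusted p = 0.00271) in WT and 0.43 ± 0.14 (adjusted p = 0.0231) in Aim2-/- cells at 3 h. It was 0.60 (adjusted p = 0.0011) and 0.53 (adjusted p = 0.00286) at 6 h, and 2.40 ± 0.14 (adjusted p = 3.9e-12) and 1.98 ± 0.14 (adjusted p = 7.3e-11) at 24 h. From 3 to 6 h the changes of 0.02 and 0.11 were not called, and from 6 to 24 h the gene rose by 1.80 and 1.45. The 3 h call was lost in WT cells without mouse 3 (0.47) and in Aim2-/- cells without any 1 of their 3 mice, without WT mouse 3, with every gene that had a count tested and with only the libraries compared (0.36 to 0.51 in these 6 fits).

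Dpp4 encodes CD26, a dipeptidyl peptidase that trims chemokines and other peptides. WT mice 1, 3 and 4 had 75.6, 55.9 and 60.0 CPM at 0 h, 60.0, 60.2 and 82.9 CPM at 3 h, 51.5, 45.1 and 59.9 CPM at 6 h and 25.9, 19.2 and 23.8 CPM at 24 h. The mice disagreed on the direction at 3 h and agreed from 3 h onward.
Dpp4 in Aim2-/- mice 1, 2 and 4 measured 52.4, 56.9 and 57.0 CPM at 0 h, 51.3, 67.5 and 46.8 CPM at 3 h, 47.3, 54.7 and 41.4 CPM at 6 h and 27.3, 21 and 22.9 CPM at 24 h. Dpp4 at 24 h was lower than at 0 h by -1.48 ± 0.17 (log2, SE) in WT (adjusted p = 9.6e-08) and by -1.22 ± 0.17 in Aim2-/- cells (adjusted p = 1.5e-06). The 6 h estimates of -0.29 and -0.21 were not called (adjusted p = 0.147 and 0.293). From 3 to 6 h Dpp4 changed by -0.38 in WT cells, called only with mouse as a block (adjusted p = 0.0266, without it 0.1).

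Comparing the genotypes, 1 member of 7 was called at 0 h, Adora2a, where 5.23% of tested genes passed. Adora2a averaged 271 ± 51.8 CPM (SD, n = 3) in Aim2-/- and 168 ± 17.8 CPM (SD, n = 3) in WT cells, and the groups did not overlap. Its log2 difference was 0.69 ± 0.14 (SE, adjusted p = 0.0123), and without the mouse labelled WT 1 it was 0.71 (adjusted p = 0.0202). The call was lost without Aim2-/- mouse 4 (0.74), without WT mouse 3 (0.57) and without WT mouse 4 (0.73), with adjusted p up to 0.117. Adora2a was also higher in the mean of Aim2-/- cells at 3 h (148 ± 18.4 against 116 ± 17.1 CPM), 6 h (110 ± 11.3 against 95.5 ± 1.25 CPM) and 24 h (36.0 ± 5.93 against 28.1 ± 3.36 CPM), without being called. Those differences were 0.35, 0.21 and 0.36 on the log2 scale (adjusted p = 0.256, 0.309 and 0.185), and 0.47, 0.20 and 0.40 without WT mouse 1, again uncalled.

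At 3, 6 and 24 h edgeR called 0 of the 7 members between genotypes, while 0.294%, 15.8% and 0.666% of tested genes passed. At an unadjusted p under 0.05 there were 2, 1 and 4 members. DESeq2 called 0, 0 and 2 members (Entpd1 and P2rx7 at 24 h), against 2%, 21.6% and 5.14% of tested genes. Limma-voom called 0, 1 (Entpd1) and 0, against 0.411%, 16.3% and 0.0326%. At 0 h each of these tools called 1 member, where 10.2% and 5.23% of tested genes passed. Without Aim2-/- mouse 2, edgeR called 3 members at 24 h, Entpd1 (1.53), Adora2a (0.45) and P2rx7 (0.93), against 17.3% of tested genes. The median log2 difference of the 7 was 0.25, 0.14, 0.21 and 0.36 at 0, 3, 6 and 24 h, against -0.01, 0.00, 0.05 and 0.01 over all tested genes. With the 4 libraries of a mouse summed, 0 of 7 were called by edgeR (0.0117% of tested genes), 2 by DESeq2 (10.1%), 0 by limma-voom (0%) and 2 at an unadjusted p under 0.05. Those at an unadjusted p under 0.05 were Adora2a, at 0.49 ± 0.11 (adjusted p = 0.127), and Entpd1, at 0.96 ± 0.28 (adjusted p = 0.142). Without WT mouse 1 they were 0.54 (adjusted p = 0.108) and 1.25 (adjusted p = 0.0801), and without Aim2-/- mouse 2 Adora2a was called in the sums (0.56), as were 16.7% of tested genes. With every gene that had a count tested, 1 member was called in the sums, against 1.73% of genes.

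Entpd1 had the largest estimate of any member at every time, at 0.90 ± 0.37, 0.90 ± 0.37, 0.92 ± 0.37 and 1.28 ± 0.40 (log2, SE) at 0, 3, 6 and 24 h, and none passed (adjusted p = 0.141, 0.26, 0.086 and 0.104). Mean levels were 22.0 ± 4.43 against 11.8 ± 3.16 CPM at 0 h and 6.79 ± 4.15 against 2.79 ± 0.941 CPM at 24 h (Aim2-/- against WT, SD, n = 3). Every Aim2-/- mouse exceeded every WT mouse at 0, 3 and 24 h. At 6 h WT mouse 1 had 13 CPM and Aim2-/- mouse 4 had 12.3 CPM. Without the mouse labelled WT 1 the differences were 1.07, 1.17, 1.38 and 1.59, and that of 6 h passed (adjusted p = 0.0297; 11.4% of tested genes), the other 3 having adjusted p from 0.0713 to 0.0948. With every gene that had a count tested, edgeR called Entpd1 at all 4 times (0.87, 0.89, 0.85 and 1.23), where 4.78%, 2.47%, 9.38% and 3.07% of genes passed.

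**Figure D3:**
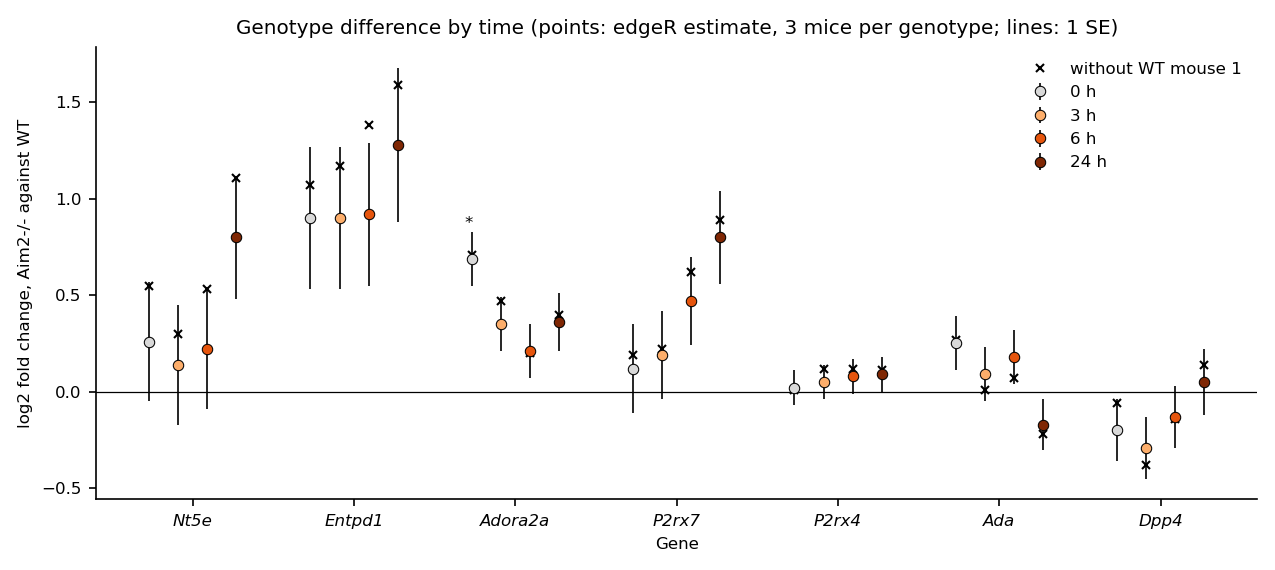
Log2 fold change of each gene in Aim2-/- against WT cells at 0, 3, 6 and 24 h, with 1 SE of the edgeR fit (3 mice per genotype). Crosses give the estimate without the mouse labelled WT 1, and the asterisk marks the 1 adjusted p under 0.05, Adora2a at 0 h (0.69); Entpd1 lies between 0.90 and 1.28.

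Markers of other cells differed between the same libraries. At 0 h the summed B cell markers were 349 to 747 CPM in WT and 4350 to 6090 CPM in Aim2-/- mice, nearly all of it Ighm. Myeloid markers summed to 45.5 to 68.8 CPM in WT and 131 to 399 CPM in Aim2-/- mice, NK cell markers to 32.0 to 52.9 and 91.5 to 112 CPM, and Treg markers to 1220 to 1680 and 1830 to 2290 CPM. Neutrophil markers summed to 20.8 to 24.0 and 87.7 to 218 CPM, basophil or mast cell markers to 7.20 to 9.97 and 53.3 to 102 CPM, platelet markers to 11.4 to 20.6 and 28.7 to 47.7 CPM, and erythroid markers to 7.40 to 71.5 and 20.6 to 332 CPM. CD8 T cell markers did not differ in this way, at 9.76 to 11.4 and 8.12 to 10.9 CPM. At 24 h the basophil or mast cell sums were 6.93 to 13.2 and 45.2 to 183 CPM. Of the tested markers, edgeR called 3 of 7 for B cells, 2 of 8 for myeloid cells, 1 of 4 for NK cells, 1 of 5 for Treg cells, 1 of 3 for neutrophils, 5 of 5 for basophils or mast cells, 1 of 4 for platelets and 0 of 5 for erythroid cells higher in Aim2-/- cells at 0 h, and 0 of them lower. Ms4a1, Adgre1 and Cd14 were at 0 in 2, 3 and 2 of the 24 libraries. At 24 h the B cell sums were 328 to 436 and 712 to 1600 CPM and the NK cell sums, 14.1 to 20.8 and 16.7 to 24.1 CPM, overlapped. Foxp3 stood at 104 ± 17.1 CPM in WT and 148 ± 19.4 CPM in Aim2-/- cells at 0 h. The part of these cells in the Entpd1 and Adora2a differences was not tested.

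The other 5 members were not called between genotypes in the edgeR fit over all 24 libraries. Nt5e was 0.26, 0.14, 0.22 and 0.80 higher (log2) in Aim2-/- cells at 0, 3, 6 and 24 h, with overlapping groups and adjusted p of 0.642, 0.863, 0.649 and 0.175. Without the mouse labelled WT 1 these Nt5e differences were 0.55, 0.30, 0.53 and 1.11, with adjusted p from 0.0867 to 0.606. The P2rx7 differences were 0.12, 0.19, 0.47 and 0.80 in order of time, with no overlap at 24 h (17.6 ± 7.04 against 10.1 ± 2.03 CPM, SD, n = 3) and an adjusted p of 0.0966 there; without WT mouse 1 they were 0.19, 0.22, 0.62 and 0.89 (adjusted p = 0.135 at 24 h). P2rx4 differed by 0.02 to 0.09 with an SE of 0.09, and by 0.01 to 0.12 without WT mouse 1. Ada lay between -0.17 and 0.25 and Dpp4 between -0.29 and 0.05, with overlapping groups at all 4 times, and without WT mouse 1 they lay between -0.22 and 0.27 and between -0.38 and 0.14.

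Whether stimulation acted differently in the 2 genotypes was tested as an interaction. At 3, 6 and 24 h edgeR called 0 of 7 members, where 0%, 0.0261% and 0% of tested genes passed, DESeq2 and limma-voom likewise called 0, and 0, 1 and 1 members had an unadjusted p under 0.05. Those were Adora2a at 6 h (-0.49 ± 0.20, the larger estimated fall being in Aim2-/- cells, adjusted p = 0.293) and Ada at 24 h (-0.42 ± 0.19, the smaller estimated rise being in Aim2-/- cells, adjusted p = 0.399). Without WT mouse 1 these were -0.51 (adjusted p = 0.425) and -0.48 (adjusted p = 0.361). With mouse as a block 1 member was called at 6 h, Adora2a (-0.48, adjusted p = 0.0313), and 1 at 24 h, P2rx7 (0.65, a smaller fall in Aim2-/- cells, adjusted p = 0.0386). Under the block 4.68% and 2.77% of tested genes passed.

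Across all 24 libraries, Ada ran opposite to the other 6, with Pearson r of log2 CPM from -0.95 (Nt5e) to -0.74 (Entpd1), and the other members paired at 0.68 (Dpp4 and Entpd1) to 0.96 (Adora2a and Nt5e). These coefficients describe libraries that share 6 mice and 4 time points. Over the same libraries the protein-coding genes most like each member were Rora and Smpdl3a for Nt5e (both 0.989), Syt11 and Gpr35 for Entpd1 (both 0.976), and Ndrg1 (0.987) and Traf1 (0.984) for Adora2a. For P2rx7 they were Wls (0.962) and Rab37 (0.956), for P2rx4 Itm2b and Calca (both 0.971), and for Dpp4 Resf1 (0.977) and Cdc42se2 (0.976). Ada was most like Ezh2 (0.986), the methyltransferase of Polycomb complex 2, and Hemk1 (0.982).

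The wider purine pathway was followed through a list of 63 other genes, 62 of them in the table and 42 with enough counts to be tested. In WT cells 17, 22 and 28 of the 42 were called at 3, 6 and 24 h (8, 13 and 18 higher; 9, 9 and 10 lower), and in Aim2-/- cells 16, 23 and 26 (7, 14 and 17 higher; 9, 9 and 9 lower). These shares are near those of all tested genes given above. Medians at 24 h were 0.25 and 0.26, against -0.01 and 0.03 over all tested genes. Among the 20 genes too low to test were the adenosine receptors Adora1 (highest value 0.197 CPM) and Adora3 (0.359 CPM), the ectonucleotidases Entpd2, Entpd3 and Entpd8, and the channels P2rx2, P2rx3, P2rx5 and P2rx6.

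**Figure D4:**
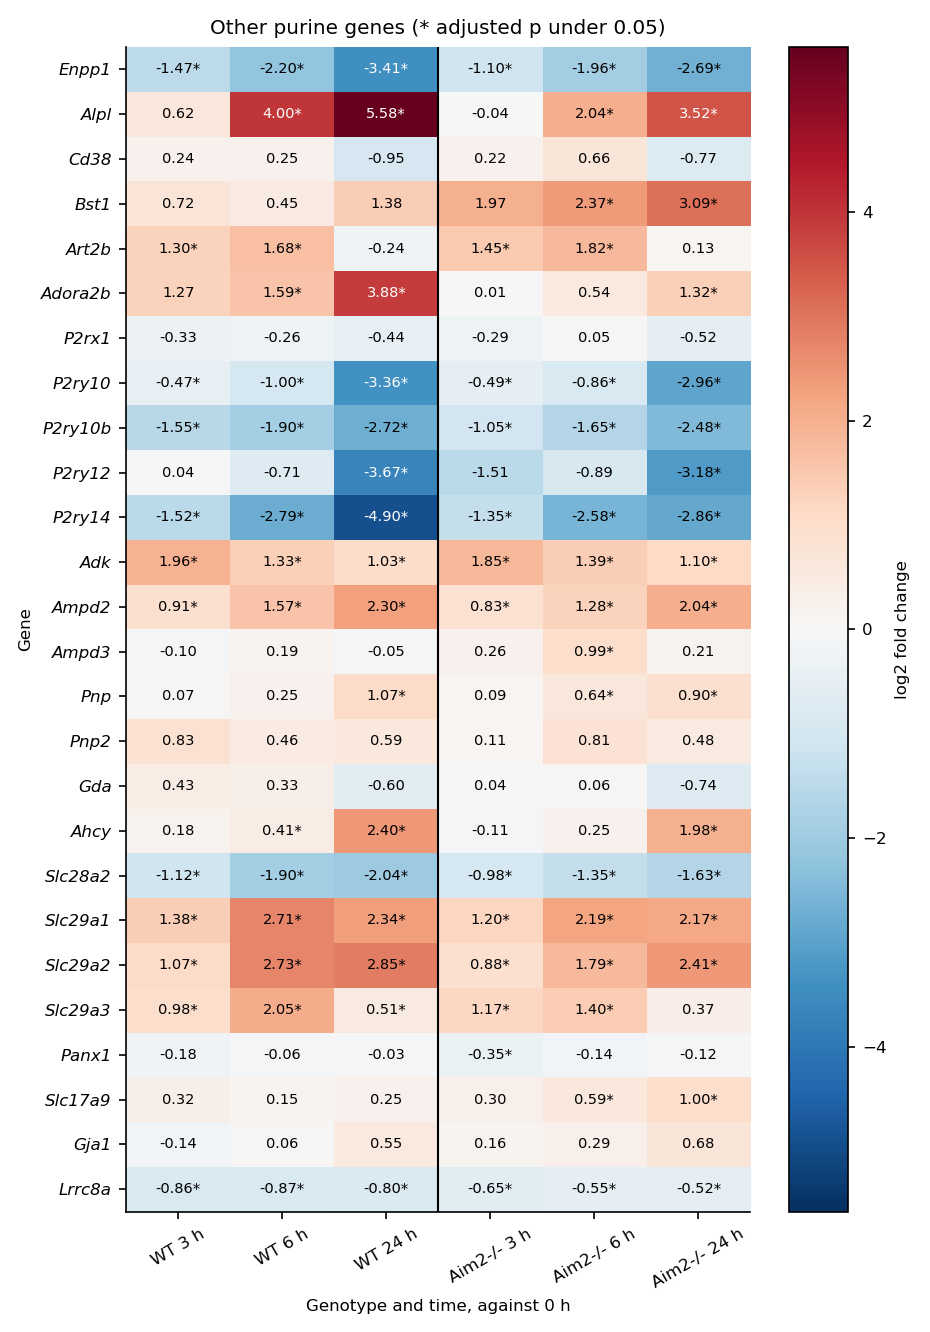
Log2 fold change against 0 h (colour and number, edgeR) of 26 other genes of the purine pathway at 3, 6 and 24 h in WT and Aim2-/- cells, 3 mice per group; asterisks mark an adjusted p under 0.05. Transporters of the Slc29 family are red at 3 and 6 h and the P2ry10, P2ry10b and P2ry14 receptors are blue at 3, 6 and 24 h; P2ry12 and Bst1 lay near the floor of detection.

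Of 9 tested genes listed under ectonucleotidases, 3 were higher and 2 lower at 24 h in WT cells, and 2 and 2 in Aim2-/- cells. This is a list label, and not every enzyme under it acts mainly on extracellular nucleotides. Over all tested genes 36.6% were higher and 34.8% lower in WT, and 36.8% and 33.5% in Aim2-/- cells. The same shares apply to the counts by role that follow. Enpp1, which cleaves ATP to AMP, fell from 39.3 ± 7.65 to 3.69 ± 0.668 CPM (SD, n = 3) in WT cells, by -3.41 on the log2 scale (adjusted p = 3.4e-12), and by -2.69 in Aim2-/- cells (adjusted p = 8.1e-11). Alpl, tissue-nonspecific alkaline phosphatase, which can also make adenosine from AMP, went the other way, up from 0.556 ± 0.308 to 27.0 ± 2.89 CPM in WT cells, with 1.99 ± 0.459 and 23.0 ± 7.57 CPM at the same times in Aim2-/- cells. Art2b, an ADP-ribosyltransferase that can gate P2X7 on mouse T cells, rose to a peak at 6 h (1.68 in WT, 1.82 in Aim2-/- cells) and at 24 h was at -0.24 and 0.13, not called. Cd38, the NAD-consuming ectoenzyme, had 2.68 ± 0.455 CPM at 0 h in WT cells and was not called against 0 h at any time. Between 6 and 24 h, however, Cd38 was called as lower in both genotypes. Its WT means at these 2 times were 3.18 and 1.38 CPM, and its Aim2-/- means were 7.58 and 2.79 CPM.

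The second adenosine receptor, the lower-affinity Adora2b, rose while Adora2a fell. It went from 0.204 ± 0.105 to 3.07 ± 0.852 CPM over 24 h in WT cells (log2 3.88, adjusted p = 6.3e-06) and from 1.58 ± 0.987 to 3.96 ± 0.900 CPM in Aim2-/- cells (1.32, adjusted p = 0.019). Per kb, resting WT cells held 0.111 CPM of Adora2b beside 64.7 CPM of Adora2a. P2rx1, the other tested P2X channel, lay between 0.647 and 2.25 CPM in the group means and was not called over time. Among 7 tested P2Y and related receptors, 2 were higher and 4 lower at 24 h in each genotype. P2ry10, a lysophospholipid receptor grouped with the P2Y family, was the most abundant at 634 ± 12 CPM in resting WT cells and fell to 61.7 ± 13.3 CPM. P2ry14, the UDP-sugar receptor, fell from 9.87 ± 1.27 to 0.324 ± 0.108 CPM, by -4.90 in WT cells, and by -2.86 in Aim2-/- cells.

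Of 15 tested genes of adenosine breakdown and salvage, 9 were higher at 24 h in each genotype, with 2 lower in WT and 1 in Aim2-/- cells. Adk, the kinase that returns adenosine to AMP inside the cell, peaked at 3 h, from 66.8 ± 9.04 to 260 ± 31.4 CPM in WT cells (1.96, adjusted p = 7.3e-10), and was still 1.03 higher at 24 h. Ampd2, the AMP deaminase, rose by 2.30 and 2.04 over 24 h, and Ahcy, which hydrolyses S-adenosylhomocysteine to adenosine and homocysteine, by 2.40 and 1.98. Pnp, which acts on the inosine that Ada makes, rose by 1.07 and 0.90.

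Of the equilibrative nucleoside carriers, Slc29a1, Slc29a2 and Slc29a3 were called as higher at 3 and 6 h in both genotypes, with Slc29a1 at 2.71 and 2.19 at 6 h (51.7 ± 2.68 to 339 ± 24.2 CPM in WT cells). Slc29a4, of the same family, was scarce and not called, at 0.540 CPM at 0 h and 0.282 CPM at 6 h in WT cells. The sodium-coupled carrier Slc28a2 fell by -2.04 and -1.63 over 24 h. Of the ATP release genes, the channel Panx1 lay between 60.3 and 76.8 CPM in the group means, and its one call was a fall of -0.35 at 3 h in Aim2-/- cells (adjusted p = 0.00916). The vesicular nucleotide transporter Slc17a9 rose by 1.00 in Aim2-/- cells (adjusted p = 1.7e-06), with a WT value of 0.25 (adjusted p = 0.103). It started at 31.9 CPM in Aim2-/- and 46.7 CPM in WT cells. In the 24 h interaction, edgeR without a block called 0 of the 42 listed genes, where 0% of tested genes passed. The volume-regulated channel subunit Lrrc8a was lower at 3, 6 and 24 h in both.

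At 0, 3, 6 and 24 h, edgeR called 6, 0, 10 and 1 of the 42 between genotypes, against 5.23%, 0.294%, 15.8% and 0.666% of all tested genes, with 11, 11, 16 and 11 at an unadjusted p under 0.05. Higher in Aim2-/- cells at 0 h were Alpl (1.82, adjusted p = 0.0134), Adora2b (2.92, adjusted p = 0.0132), P2rx1 (1.30, adjusted p = 0.0469) and Gda (2.55, adjusted p = 0.0299), and lower were Slc28a2 (-0.50, adjusted p = 0.0242) and Slc17a9 (-0.55, adjusted p = 0.0302). At 6 h Pnp had 50.6 ± 10.7 CPM in Aim2-/- and 27.4 ± 2.46 CPM in WT cells (0.89, adjusted p = 0.00846), and Slc29a1, Slc29a2 and Slc29a3 were lower in Aim2-/- cells by -0.52, -0.73 and -0.74. The other 6 calls of 6 h were higher in Aim2-/- cells: Adora2b (1.87), P2rx1 (1.6), Gda (2.29), Ampd3 (0.76), Pnp2 (1.79) and Bst1 (3.24), the last at 1.37 and 0.139 CPM. Without the mouse labelled WT 1, P2rx1 at 0 h (adjusted p = 0.104), Pnp2 at 6 h (adjusted p = 0.0585) and the 3 Slc29 genes at 6 h (adjusted p = 0.0711 to 0.106) did not pass. Over the 3 times with calls there were 17, and all 17 were lost without WT mouse 3 and without WT mouse 4, 16 without Aim2-/- mouse 4, 15 without Aim2-/- mouse 1, 6 without WT mouse 1 and 0 without Aim2-/- mouse 2. The highest adjusted p was 0.121 for Alpl, 0.0907 for Adora2b and 0.15 for Gda at 0 h and 0.0706 for Pnp at 6 h. The 1 call at 24 h was P2ry14 (1.94, adjusted p = 0.0409), which did not pass without WT mouse 1 (adjusted p = 0.111) or without Aim2-/- mouse 1 (adjusted p = 0.542). These are also the libraries in which markers of B cells and myeloid cells were higher, and the part of those cells was not tested.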

How the data were processed

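The authors isolated CD4+ T cells from spleen by immunomagnetic negative selection and prepared stranded mRNA libraries. Per the labels, reads were processed with STAR, DESeq2 and edgeR on GRCm38, and the authors deposited raw read counts per gene, not normalized. The version of each tool and the counter's use of strand are not given in the sources used here. Groups came from the labels.

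Counts were tested with edgeR 4.0.16 in R 4.3.3: TMM factors, filterByExpr (minimum count 10), 1 mean per group over 24 libraries, quasi-likelihood F test (two-sided), with Benjamini-Hochberg adjustment within each comparison over all 15325 tested genes. The common dispersion was 0.0346. The sums by mouse were adjusted over 17163 genes and the fit of every gene with a count over 31367. Other filters, fits without a mouse and fits of only the libraries compared were adjusted over their own tested genes. Log2 CPM used a prior count of 2. The floor and SE cover counting and mouse-to-mouse spread only. Alternatives were RLE factors, library totals, DESeq2 1.42.0, limma-voom (limma 3.58.1), other filters, only the libraries compared, blocks, and each mouse left out. Mouse was used as a block because each mouse gave cells at all 4 times. Pairs of libraries were correlated after the mean of each group was subtracted. The 36 same-mouse pairs correlated at 0.139 to 0.567 and 72 pairs of different mice of a genotype at -0.432 to 0.0742. With so few mice per group, positive same-mouse values by themselves push the different-mouse values down. The contrast between the 2 ranges is therefore not separate support for the block. Gene positions came from GENCODE M21, which matched 54409 of 54446 identifiers, and start sites from RefSeq. The script was tested on simulated data.

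Members, gene lists and the naming rule were chosen with earlier results of these data known. The rule names the 7 members and Aim2, the 2 protein-coding genes most correlated with each member, 12 set genes of the pathway list, up to 2 further genes per role with the largest 24 h change, and every listed gene called between genotypes.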

Additional observations from a re-analysis of the deposited data

Results flagged for a closer look

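P2rx7 stood out in the response from 0 to 6 h. All 3 WT mice moved down, from 34.9, 29.5 and 31.6 CPM to 34.7, 23.2 and 29.0 CPM, and all 3 Aim2-/- mice moved up, from 42.5, 29.9 and 32.2 CPM to 47.1, 39.0 and 34.6 CPM. The difference between the 2 responses was 0.35 ± 0.33 (log2, SE) and did not pass the interaction test of edgeR (adjusted p = 0.698). With mouse as a block it was 0.37 (adjusted p = 0.169). The mouse labelled WT 1, whose Aim2 level went against its label, was nearly level, at 34.9 and 34.7 CPM. Without that mouse the difference was 0.43 (adjusted p = 0.729).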

How the results depend on the processing

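All 7 members stayed called at 24 h against 0 h in both genotypes under every alternative run, and no called value changed direction. With mouse as a replicate block, 4 members were called at 3 h and 3 between 3 and 6 h in each genotype, and 1 each in the interactions at 6 and 24 h. The mouse number does not pair animals across genotypes; used as a replicate block between genotypes it gave 2, 3, 2 and 4 calls at 0, 3, 6 and 24 h, while 23.6%, 15.2%, 36% and 21.1% of all tested genes passed. With every gene that had a count tested, 2, 1, 1 and 3 members were called at these times (4.78%, 2.47%, 9.38% and 3.07% of genes) and 1 in the sums by mouse (1.73%). DESeq2 called 2 at 24 h and 2 in the sums, and limma-voom 1 at 6 h. The 1 call between 3 and 6 h in Aim2-/- cells became 0 with library totals only and with only the libraries compared. Leaving out 1 mouse at a time gave 1 to 2 calls at 3 h in each genotype, 0 to 1 between 3 and 6 h in Aim2-/- cells, and between genotypes 0 to 1 at 0 and 6 h, 0 to 3 at 24 h and 0 to 1 in the sums. With 3 mice a group, of which WT 1 goes against its label, the Entpd1 differences passed in edgeR only under some of these settings.

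Changes of sign occurred only in uncalled estimates. For P2rx4 library totals gave 0.07 and 0.11 at 3 h in WT and Aim2-/- cells and 0.07 at 6 h in Aim2-/- cells, 2 other filters gave -0.01, 0.00 and 0.01, RLE factors 0.00 and only the libraries compared -0.04. Leaving out 1 mouse, its estimates ran from -0.06 to 0.03 at 3 h in Aim2-/- cells, -0.01 to 0.05, -0.02 to 0.12 and -0.01 to 0.12 between genotypes at 0, 3 and 6 h, and -0.03 to 0.11 and 0.00 to 0.11 in the interactions at 3 and 6 h. For Dpp4 library totals gave 0.11 and both filters 0.01 at 3 h in Aim2-/- cells, the number block -0.09 between genotypes at 24 h, and only the libraries compared -0.01 in the 6 h interaction. With 1 mouse left out Dpp4 ran from -0.16 to 0.30 and -0.16 to 0.12 at 3 h in WT and Aim2-/- cells, -0.07 to 0.14 between genotypes at 24 h, and -0.31 to 0.15 and -0.08 to 0.22 in the interactions at 3 and 6 h. For Entpd1 the 3 h interaction was 0.00 to 0.02 under other tools, filters and the block (0.01 with library totals) and -0.06 to 0.10 with a mouse left out. The Entpd1 interaction at 6 h was -0.02, -0.01 and -0.07 with 2 filters and only the libraries compared and -0.15 to 0.31 with a mouse left out, that at 24 h -0.07 to 0.59, and the steps from 3 to 6 h -0.23 to 0.04 and -0.05 to 0.04. For Ada the WT step from 3 to 6 h was -0.01 with RLE factors and DESeq2, 0.00 with library totals and -0.06 to 0.04 with a mouse left out, the 6 h interaction -0.19 to 0.03, and the sums -0.01, -0.01 and -0.02, or -0.05 to 0.04. For P2rx7 leaving out a mouse gave -0.03 to 0.18 for the WT step from 3 to 6 h and -0.04 to 0.22 and -0.03 to 0.31 between genotypes at 0 and 3 h. Nt5e between genotypes at 3 h was -0.07 with the number block and -0.06 to 0.30 with a mouse left out. The cause was not tested.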
